A study of Mus musculus with 24 samples.

Results

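The regions described here are wide stretches of the histone mark H3K27ac that lay away from H3K4me3 in the mouse retina at postnatal day 2 (P2) and were absent from the H3K27ac list at postnatal day 17 (P17). They were chosen by measured values: a P2 H3K27ac peak of 5000 bp or more with no overlap of 1 bp or more to a P17 H3K27ac peak or a P2 H3K4me3 peak. Of 287845 P2 H3K27ac peaks, 13870 were that wide and 7009 met the whole rule. These 7009 regions are called members below. The 5689 P2 regions of 5000 bp or more without H3K4me3 that did overlap a P17 H3K27ac peak are called kept regions. They serve as the comparison but were wider, with a median of 8058 bp against 6635 bp for members. Shares are matched for width only where width bands are given.

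CUT&RUN sends a nuclease to a chromatin-bound protein by means of an antibody and sequences the DNA that is released. The study applied it to retinas of wild-type mice of 2 ages, P2 and P17, with 600000 nuclei per reaction and no other treatment named in the labels. At each age there were 2 libraries each for H3K27ac, H3K4me3, SOX9 and a control IgG, and 4 for SOX8, from 2 different antibodies with 2 libraries each. The single SOX8 list of an age was taken to stand for both antibodies, so it is not matched to the SOX9 list, which comes from 1 antibody. Each target and age is represented by a single list of peak positions, with a score of 0 for every peak, so no value carries a replicate error, the depth is unknown, and "absent" means only "not in the P17 list". The labels give the tissue only as retina, and a mark present in few cells cannot be told apart from a weak mark in many.

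H3K27ac is placed on active enhancers and promoters, while H3K4me3 is concentrated at promoters, so wide H3K27ac without H3K4me3 is often read as a dense group of enhancers. At P2 the mouse retina still contains dividing progenitors, and rods, bipolar cells and Müller glia are being born. By P17 cell birth has ended and the retina is nearly mature. SOX8 and SOX9 are SoxE transcription factors that bind DNA through an HMG box, and both are known in Müller glia, the main glia of the retina.

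The 4 stretches of promoter sequence below show what kind of gene start some members cover. They come from RefSeq (build GRCm38.p6), run 5′ to 3′ on the strand of the gene and end at the base before an annotated transcript start. Capitals mark ACAAT or ACAAAG on either strand, which are short forms of the SOX consensus. They share the letters ACAA, but no match can be both. They were selected because the genes are among those with the most members or in the largest clusters, and because a member lies over the start. The start shown for Ptprg, a receptor tyrosine phosphatase, lies on the plus strand at chr14:12189693-12189942 and that of Cd82, a tetraspanin, on the minus strand at chr2:93462951-93463200. Plekhg1, a guanine nucleotide exchange factor, is on the plus strand at chr10:3872417-3872666, and Kalrn, another such exchange factor, is on the minus strand at chr16:34514028-34514277.

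Ptprg: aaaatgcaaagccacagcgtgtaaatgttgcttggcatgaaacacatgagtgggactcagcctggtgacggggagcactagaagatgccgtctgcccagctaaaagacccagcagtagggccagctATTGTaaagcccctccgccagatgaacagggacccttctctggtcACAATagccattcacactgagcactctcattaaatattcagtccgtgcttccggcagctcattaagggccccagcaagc

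Cd82: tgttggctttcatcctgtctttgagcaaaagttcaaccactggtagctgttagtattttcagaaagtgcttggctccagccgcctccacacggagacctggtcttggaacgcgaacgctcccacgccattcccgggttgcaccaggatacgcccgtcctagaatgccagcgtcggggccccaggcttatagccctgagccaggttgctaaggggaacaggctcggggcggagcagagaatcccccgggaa

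Plekhg1: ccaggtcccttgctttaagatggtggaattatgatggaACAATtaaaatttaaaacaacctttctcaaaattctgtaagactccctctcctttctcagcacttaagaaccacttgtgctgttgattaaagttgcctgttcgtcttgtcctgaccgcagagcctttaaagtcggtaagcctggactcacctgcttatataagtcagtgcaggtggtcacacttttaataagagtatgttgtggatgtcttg

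Kalrn: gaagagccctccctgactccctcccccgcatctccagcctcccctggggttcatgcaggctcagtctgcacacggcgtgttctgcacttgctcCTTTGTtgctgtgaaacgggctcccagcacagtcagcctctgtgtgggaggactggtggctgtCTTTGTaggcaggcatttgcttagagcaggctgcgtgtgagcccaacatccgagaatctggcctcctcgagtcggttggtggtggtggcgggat

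The Cd82 start is the first of its gene, whereas those of Plekhg1, Kalrn and Ptprg are internal starts 132, 59.2 and 637 kb inside the gene. No H3K4me3 peak lay on any of these 4 windows at P17, and at P2 the rule allowed none inside a member. Elsewhere in the gene or within 1 kb of it, Ptprg and Kalrn had H3K4me3 at both ages and Plekhg1 at P2, while Cd82 had none. The nearest P2 H3K4me3 peak was 93367 bp from the Ptprg window and 127541 bp from the Cd82 window. A P2 SOX9 peak covered the Ptprg window, which holds ACAAT once on each strand, and also the Cd82 window, which holds neither motif. The Plekhg1 window, with 1 ACAAT, and the Kalrn window, with 2 copies of ACAAAG on the strand opposite to the gene, had no SOX9 peak nearer than 513133 bp and 57480 bp.

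In all, 164 members (2.34%) overlapped an annotated start window, which reaches from 250 bases before to 50 bases after a start. They covered 191 windows of 168 genes. The median number of CpG dinucleotides in these windows was 4, against 10 over all 21263 windows, 16 in windows under wide H3K27ac with H3K4me3, and 4 in windows under kept regions. ACAAT occurred in 24.1% of the members' windows and in 25.1% of all windows, and ACAAAG in 21.5% and 14.9%. Among windows outside members that lacked P2 H3K4me3 those shares were 32.6% and 18.3%. In CpG number the windows in members, which lack P2 H3K4me3 by the rule, thus resembled other windows without it, whose median was also 4.

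The members covered 55.7 Mb. Their median width was 6635 bp, with quartiles of 5637 and 8665 bp, and the widest measured 65455 bp. Of all P2 H3K27ac peaks, 85.3% had no overlap to the P17 list, so absence at P17 was the common state. The P17 list is much shorter, with 29909 peaks over 173.0 Mb and a median width of 3268 bp, against 525.4 Mb and 1166 bp at P2. Whether regions are absent because the mark was lost or because fewer peaks were called at P17 cannot be told apart. Among peaks without H3K4me3 the absent share fell with width, from 93.0% below 1 kb to 64.1% between 5 and 7.5 kb, 41.1% between 10 and 20 kb and 22.9% at 20 kb or more. These values enter the rule and only describe it. At the threshold, the narrowest members were 5001 bp wide, 1 of them near Sox9 and 1 over Tuft1, while the widest regions just outside it measured 4999 bp, near Hrh2 and Cecr2.

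The distances to the lists used by the rule describe the members and do not show that the mark was lost. The median distance from a member to the nearest P17 H3K27ac peak was 26.6 kb, and 227 members (3.24%) lay within 1 kb of one. The nearest P2 H3K4me3 peak was at a median of 82.5 kb, against 43.7 kb for kept regions. Of the members, 29.5% were 10 kb or less from the nearest gene end (protein-coding genes), and 20.1% were more than 100 kb from any. The corresponding share beyond 100 kb was 11.7% for kept regions, a difference of -8.38 percentage points (95% interval -9.63 to -7.12, kept minus members).

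Most members lay within genes. A protein-coding gene was overlapped by 4931 members, or 70.4% (95% Wilson interval 69.3 to 71.4%), against 83.9% of kept regions (82.9 to 84.8%). The RefSeq gene table gives gene ends and no exons, so exons and introns were not told apart. These intervals, and all others here, cover counting error only, and neighbouring regions are not independent. The X chromosome had 13 members (0.185%), against 0.387% of kept regions and 0.317% of all wide regions. Among all P2 H3K27ac peaks, most of them narrow, it was 1.42%, and the Y had no member.

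The 10 widest members lay at 8 genes. The widest, 65455 bp at chr7:144585268-144650722, reached over one end of Ano1, a calcium-activated chloride channel. A member of 64695 bp at chr2:158105574-158170268 covered the whole of Tgm2, a transglutaminase that crosslinks proteins, and passed both its ends. A member of 61737 bp lay in Col5a1, a fibrillar collagen gene, and one of 45533 bp in Slc45a4. Other members of this group lay in Tafa5, which encodes a secreted neural protein (50426 bp), and in Dysf, the membrane repair gene dysferlin (43876 bp). None of these 6 members had a SOX peak at P2.

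Gli2, a transcription factor of the Hedgehog pathway, held 3 of the 10 widest members. They measured 47390, 43085 and 46845 bp. Together with 4 narrower ones, 7 members with 175 kb of H3K27ac had Gli2 as their nearest gene. Only the member at chr1:118962681-119009525 had a SOX9 peak, at both ages. The Gli2 gene had an H3K4me3 peak at P2 and none at P17.

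Ccnd1 encodes cyclin D1, which drives cells from G1 into S phase and is abundant in retinal progenitors. Its 5 members lay beyond its higher-coordinate end, from 14551 to 114821 bp away, and together spanned 99.4 kb of H3K27ac. The widest of them, 53847 bp at chr7:144984777-145038623, was among the 10 widest of all and was the widest member with either SOX factor at P2. It held a SOX9 peak and, inside the same member, a SOX8 peak of 1634 bp. Ccnd1 itself had an H3K4me3 peak at P2 and none at P17, although a P17 H3K27ac peak lay over the gene.

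**Figure D1:**
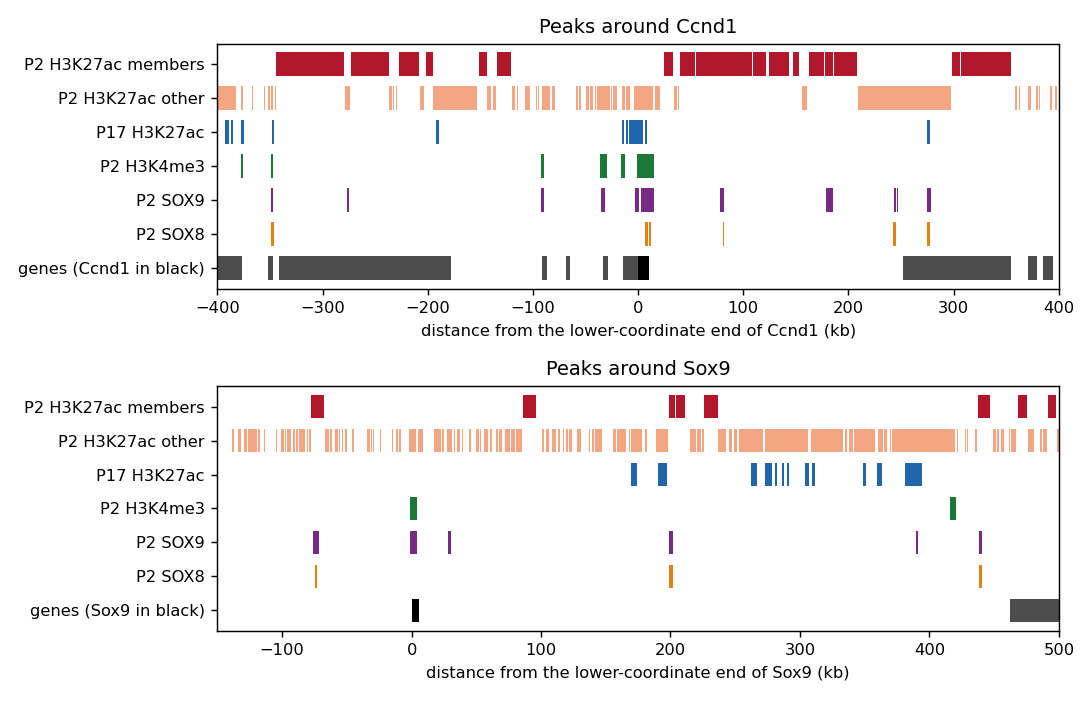
Peaks and protein-coding genes around Ccnd1 (top, from -400 to 400 kb) and Sox9 (bottom, from -150 to 500 kb), drawn to scale. Distances are in kb from the lower-coordinate end of the gene. Peaks are from the P2 and P17 H3K27ac, P2 H3K4me3, P2 SOX9 and P2 SOX8 lists. The P2 H3K27ac list is drawn as members and other peaks on separate tracks. Each bar is 1 peak or gene; the top window shows 21 members and 11 P2 SOX9 peaks, the bottom window 8 members and 6 P2 SOX9 peaks.

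Members stood in groups along the chromosomes. Another member lay within 50 kb of 4633 members, or 66.1% (65.0 to 67.2%), and the median gap to the next member was 20.7 kb. Kept regions were grouped slightly more, with 71.1% within 50 kb of another and a median gap of 11.2 kb. The difference was 5.04 percentage points (3.42 to 6.65). The share was 81.7% over all wide P2 regions and 99.6% over all P2 H3K27ac peaks. Both of these sets hold more regions, and grouping was not particular to members. Of the members, 71.1% were closer to another member than to a kept region, and 40.5% had a kept region within 50 kb.

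When members with gaps of 50 kb or less were joined, 3734 clusters resulted. Single members made up 2376 of them, while 280 clusters of 5 or more held 1935 members. The largest cluster had 23. Within the P2 list itself, 69.7% of members lay within 1 kb of another P2 H3K27ac peak, and 9.67% within 1 kb of one that was kept or had H3K4me3. The P2 list is dense, with a median gap of 1.16 kb from a peak to the next. Of all its peaks 85.3% had no P17 overlap, so most neighbours of any region were of that kind. Neither share was computed for kept regions.

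**Figure D2:**
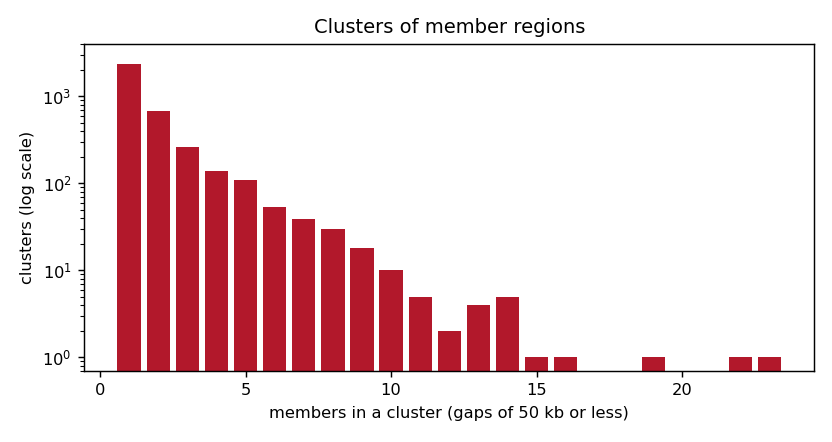
Number of clusters (vertical axis, log scale) by the number of members in a cluster (horizontal axis), with members joined across gaps of 50 kb or less. The 2376 single members form the highest bar, and the 3 clusters at the right end hold 19, 22 and 23 members.

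The largest cluster, 23 members over 433 kb at chr10:3752079-4184893, ran through Plekhg1 and Mthfd1l, a mitochondrial enzyme of folate metabolism. Its members covered 254 kb and none had a SOX peak at P2. The next, 22 members over 489 kb at chr2:93079810-93568798, ran past Tspan18, Cd82, Trp53i11, Prdm11 and Alx4. Of its members 3 had a P2 SOX9 peak and 1 had a SOX8 peak.

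At 2 of the 5 largest clusters no P17 H3K27ac peak lay anywhere in the span. One was the cluster of 16 members over 342 kb at chr12:25011585-25353589 around Id2 and Kidins220. Id2 is an inhibitor of basic helix-loop-helix factors that is expressed in progenitors and glia. Within the span 84 P2 H3K27ac peaks covered 239 kb. No member there had a SOX peak at P2, while the Id2 gene had an H3K4me3 peak at P2 only.

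The other was the cluster of 15 members over 219 kb at chr13:15493560-15712108 inside Gli3, which, like Gli2, encodes a Hedgehog pathway transcription factor. Its 44 P2 H3K27ac peaks covered 168 kb, and 1 member had SOX9. Gli3 had an H3K4me3 peak at P2 and none at P17. The span of the cluster at Plekhg1 held 3 P17 H3K27ac peaks and that at Cd82 held 1.

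**Figure D3:**
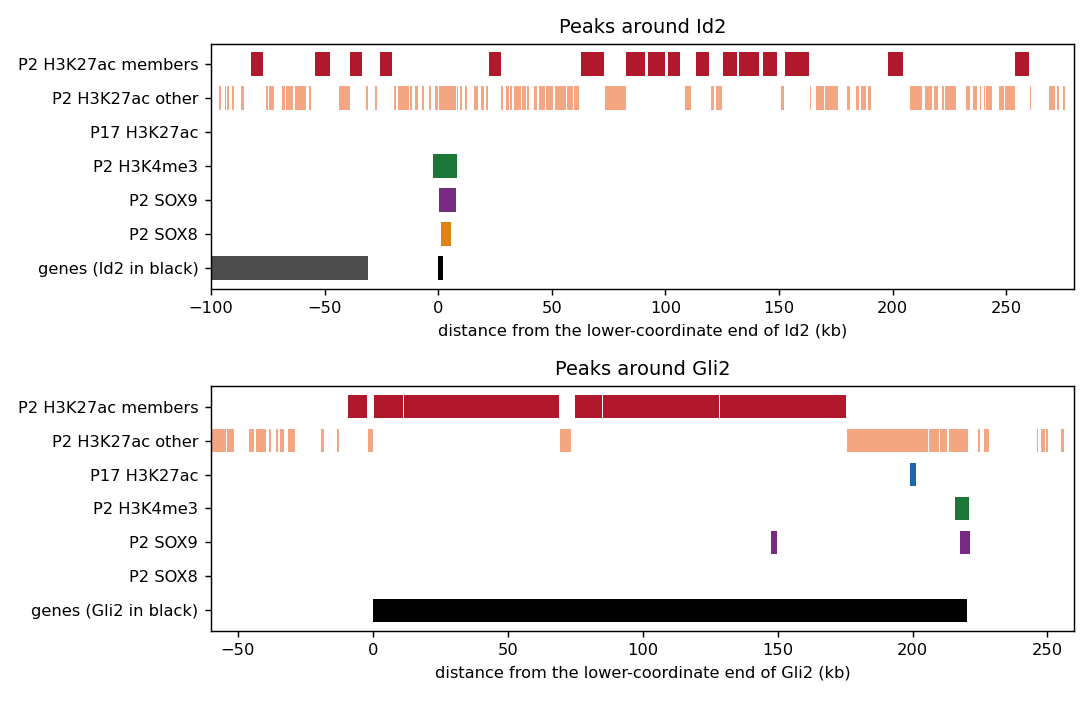
Peaks and protein-coding genes around Id2 (top, from -100 to 280 kb) and Gli2 (bottom, from -60 to 260 kb), drawn to scale. Distances are in kb from the lower-coordinate end of the gene. Peaks are from the P2 and P17 H3K27ac, P2 H3K4me3, P2 SOX9 and P2 SOX8 lists. The P2 H3K27ac list is drawn as members and other peaks on separate tracks. The Id2 window shows 16 members and no P17 H3K27ac peak; the Gli2 window shows 7 members, 1 P17 H3K27ac peak and 2 P2 SOX9 peaks.

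Every member was given its nearest protein-coding gene, or each gene it overlapped. This named 3397 of 21887 genes (15.5%), of which 1941 had 1 member and 61 had 10 or more. Kept regions named 3064 genes, and 1259 genes had both. The gene with most members was Ctnnd2, which encodes the neural catenin delta-catenin, with 22, all inside the gene. It was followed by Dock1, an activator of the small GTPase Rac, and Ptprg with 18 each.

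Ephb1 (an ephrin receptor), Ank3 (ankyrin G, which anchors channels at the axon initial segment), Sema5a (a semaphorin) and Kalrn had 17 each. Hdac4 (a histone deacetylase) and Rad51b (a DNA repair gene) had 16 each, as did Gli3, which had less total width. Ank3 also had 15 kept regions, whereas Gli3 had none. At Gli3, but not at Hdac4 or Rad51b, the H3K4me3 peak of P2 was absent from the gene at P17.

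Genes with many members were long. The median length was 17.2 kb over all protein-coding genes, 58.3 kb for those nearest to a member and 242 kb for the 217 genes overlapped by 5 or more members. Genes overlapped by kept regions had a median of 62.2 kb and those overlapped by members 71.5 kb. Per length, Gli3 had 5.63 members inside per 100 kb, against 2.57 in Ctnnd2.

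H3K4me3 at the genes at P17 was not used by the rule. The gene groups do rest on P17 H3K27ac, so the readout is not independent of the rule. P17 H3K4me3 overlapped 3.41% of kept regions and 0.0571% of members. A gene was counted when a peak overlapped it or lay within 1 kb. Of 1148 genes that had members but no kept region and carried H3K4me3 at P2, 971 carried it at P17 too, or 84.6% (82.4 to 86.6%), and 177 did not. Among genes with kept regions only the retained share was 96.3% (95.1 to 97.2%), and among genes with both it was 91.9% (90.0 to 93.5%). Genes with neither stood at 93.3% (92.7 to 93.9%). The groups differ in gene length, and the part of length in these shares was not tested.

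SOX9 peaks at P2 were found at few members. A P2 SOX9 peak overlapped 143 members, or 2.04% (1.73 to 2.40%), while 9.71% of all wide P2 regions and 1.94% of all P2 H3K27ac peaks overlapped one. The share at kept regions was 6.80% (6.18 to 7.49%), 4.76 percentage points higher (4.04 to 5.51). Per Mb of H3K27ac there were 2.62 SOX9 peaks in members and 6.85 in kept regions. Wide regions with H3K4me3 had the highest share, 69.7%.

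SOX8 at P2 overlapped 32 members, or 0.457% (0.324 to 0.644%), against 1.76% (1.45 to 2.13%) of kept regions. Over all wide regions the share was 4.53% and over all P2 H3K27ac peaks 0.924%. The difference between kept regions and members was 1.30 percentage points (0.939 to 1.70). Of the 32 members, 29 also had SOX9. The 3 with SOX8 alone lay in Sh3pxd2a, Tspan18 and Zfp423, and 114 members had SOX9 alone.

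The share with a SOX peak rose with width in both classes. With SOX9 it was 0.943% of members between 5 and 7.5 kb, 2.76% between 7.5 and 10 kb, 4.90% between 10 and 20 kb and 8.44% at 20 kb or more. The kept regions of the same widths stood at 3.32, 5.56, 9.22 and 19.7%. The intervals of members and kept regions did not overlap in any of these 4 bands for SOX9. For SOX8 they met at 1.14% between 7.5 and 10 kb and overlapped from 10 kb upwards, where 12 and 5 members had a peak.

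**Figure D4:**
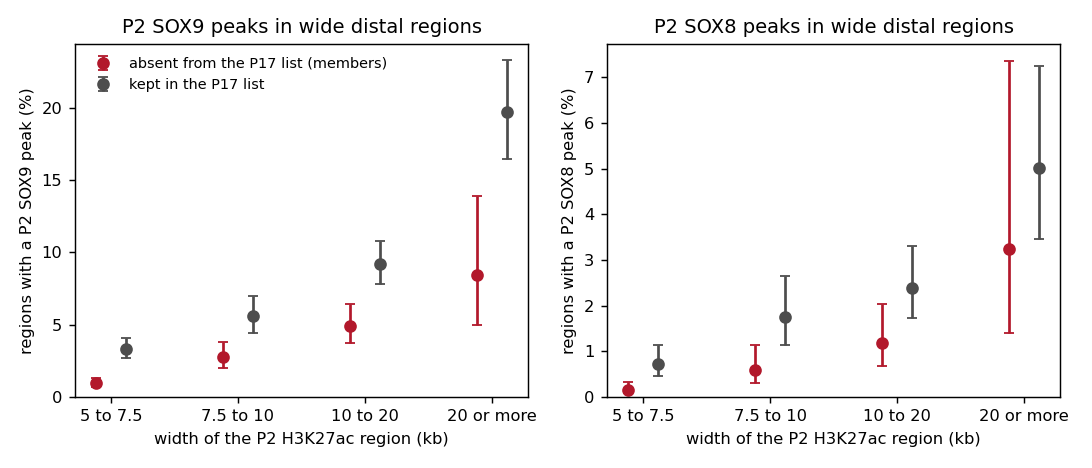
Share of regions with a P2 SOX9 peak (left) or P2 SOX8 peak (right), in percent, by region width in kb, for members (red) and kept regions (grey). Points are shares and bars 95% Wilson intervals; members are lower in every band, and the SOX8 intervals overlap in the bands of 10 to 20 kb and 20 kb or more.

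Most of the SOX peaks lay well inside the members. Of 146 P2 SOX9 peaks that touched a member, 131 were fully inside, as were all 32 P2 SOX8 peaks. These 146 were 2.67% of the P2 SOX9 list and 13.2% of its 1104 peaks outside H3K4me3. Members with P2 SOX9 were wider than others, with a median of 9340 bp, and 47.6% overlapped a protein-coding gene. Of members without any SOX peak 70.3% did so.

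After Ccnd1 and Gli2, the widest member with SOX9 measured 37364 bp at chr17:25507327-25544690. Its nearest gene was Sstr5, a somatostatin receptor, at 10038 bp, but it also lay 21202 bp from Sox8. It was the only one of the 10 widest members with P2 SOX8 that had SOX8 and SOX9 at both ages. Next came a member of 31773 bp inside Lrp5, a Wnt co-receptor, and one of 25453 bp inside Frmd4a, both with SOX8 and SOX9. Members of 31294 bp at Fbxo21, 28870 bp at Cd82, 24168 bp at Upp2, 23693 bp near 1700021F07Rik and 23593 bp at Slc13a4 had SOX9 alone.

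Other members among the 10 widest with SOX8 lay near Klf13, a zinc finger factor (21067 bp), and at Gprc5c (19625 bp), Sdk2, a synaptic adhesion molecule (15453 bp), and Pik3c2b (13812 bp). The remaining ones lay near Irx5, an Iroquois homeobox gene of bipolar cells (13955 bp), and Lemd2 (12955 bp). Each had SOX9 as well. The member near Irx5 was 384029 bp from the nearest P17 H3K27ac peak, that at Pik3c2b 4909 bp.

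The 2 genes of the factors themselves had members nearby. Sox9 was the nearest gene of 7, from 67391 to 315958 bp away on both sides. The members at chr11:112704512-112714818 (10307 bp wide) and chr11:112980908-112985908 (5001 bp) each had SOX8 and SOX9 at P2. An additional member with both factors, 431781 bp from Sox9, was nearest to Slc39a11. Sox8 was the nearest gene of 1 member, 5514 bp wide and 14978 bp away, with no SOX peak. Both genes carried H3K4me3 at P2 and neither at P17. Sox9 was also the nearest gene of 2 kept regions, and Sox8 of none. From -150 to 500 kb around Sox9 lay 12 P17 H3K27ac peaks.

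At P17, when the members had no H3K27ac peak, 138 of them (1.97%, 1.67 to 2.32%) still or newly overlapped a SOX9 peak and 84 (1.20%, 0.969 to 1.48%) a SOX8 peak. The shares over all wide regions were 7.61% and 5.18%. Only 5 members had SOX9 at both ages, at Gli2, Top1mt, Sstr5, Egfl7 and Ttyh3. Of members with P2 SOX9 3.50% (1.5 to 7.92%) thus had SOX9 at P17, against 21.4% (17.6 to 25.8%) of kept regions with P2 SOX9. The share was 12.8% (8.67 to 18.4%) in regions narrower than 5000 bp that were also absent at P17 and lacked P2 H3K4me3. Over all wide P2 regions with P2 SOX9 it was 38.9%, and over all P2 H3K27ac peaks with P2 SOX9 32.4%.

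The members with SOX9 at P17 lay elsewhere than those with SOX9 at P2. A protein-coding gene was overlapped by 89.1% of the former and 47.6% of the latter. The median distance to a gene end was 2.25 kb at P17 and 24.8 kb at P2, compared with 29.9 kb for members without SOX. P17 SOX9 peaks that touched a member had a median width of 6906 bp and 27.9% lay fully inside it, so many crossed a member's edge. P17 H3K4me3 touched 4 members, at Pias4, Foxn3, Cit and Tpra1.

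For a view by cell type, 11 lists of marker or pathway genes were searched for genes that were the nearest to a member, for which 15.5% of all protein-coding genes and 14.0% for kept regions is the reference. The lists hold 12 or 20 genes, and some genes are on more than 1 list. The nearest gene can lie far off, 1029757 bp or more for the members counted at Efna5. It is not shown to be the target of a region. The H3K4me3 counts given for lists cover only genes with members. List genes without members were not compared, so a loss is not shown to be particular to genes with members. Over all protein-coding genes with H3K4me3 at P2, 92.5% had it at P17 too.

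Among 20 genes of neurogenesis, 9 had a member and 3 a kept region. Sox4, a SoxC factor of new neurons, had 10 members, none nearer than 79528 bp and none with SOX8 or SOX9. Dll4, a Notch ligand, had 1 member of 6816 bp at 9014 bp with SOX8 and SOX9, and Dll1 had 2. Sox11 and Gadd45a had 3 each, and Neurog2, Onecut1 and Prdm1 had 1 each. All 9 genes had H3K4me3 at P2, and 5 of them had it at P17.

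Of 20 cell cycle genes, 6 had members and 2 had kept regions. Besides Ccnd1 with 5 members, Mki67, the proliferation marker, had 3, which lay 168045 bp or more away. Cdca8, E2f1, Mcm2 and Mcm6 had 1 each. The Mcm2 member lay within its gene, and the other 3 reached past an end of theirs and overlapped 1 or more neighbouring genes too. The member at E2f1, a transcription factor of S phase entry, was 11.0 kb wide. Its SOX9 peak, chr2:154548213-154551850, crossed the edge of the member over the Actl10 start. It did not reach E2f1, whose lower-coordinate end is at 154559400. All 6 genes had H3K4me3 at P2 and only Cdca8 had it at P17.

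Retinal progenitor genes had members at 5 of 20, and 5 of 20 had kept regions. Besides Ccnd1 they were Sox2, a factor of progenitors and glia, with 4 members, Meis1 with 2, and Foxp1 and Sfrp2 with 1 each. The Sox2 members were 11500, 7192, 6452 and 14556 bp wide and lay 113508 bp or more away. The first of them had SOX9 at P2.

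Müller glia genes had members at 11 of 20 and kept regions at 9 of 20. Sox9 had most with 7, followed by the glutamine synthetase gene Glul and the factor Nfia with 4 each. Nfib and Slc1a3, a glutamate transporter, had 3 each. A Slc1a3 member of 20671 bp reached over an end of the gene and had SOX9. Aqp4, Dkk3, Gpr37, Prdx6, Rlbp1 and Sox8 had 1 each, of which the one near Dkk3 had SOX9. That of Gpr37 lay 202946 bp from the gene. The member at Rlbp1, a retinoid-binding protein of Müller glia, was 5649 bp wide and lay 5842 bp from a P17 H3K27ac peak. H3K4me3 was at 10 of the 11 genes at P2 and at 6 at P17.

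Retinal ganglion cell genes had members at 7 of 20 (kept regions at 3). Rbpms had 4, Elavl4 and Stmn2 had 2, and Ebf1, Klf7, Robo2 and Sncg had 1. The Sncg member also overlapped Mmrn2. Axon guidance genes had members at 9 of 20 (kept regions at 8) and a median length of 344 kb. Sema5a with 17 and Plxna4, a plexin receptor, with 10 had most, then Nrp1 and Sema6d with 3 and Efna5 with 2. Epha5, Plxna2, Robo2 and Slit1 had 1. The nearest members of Sema6d, Plxna2 and Efna5 lay 272632, 391069 and 1029757 bp away. No member at these 2 lists had a P2 SOX9 peak.

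Bipolar cell genes and amacrine and horizontal cell genes had members at 5 of 20 each (kept regions at 4 each). In the first list Irx6 had 4 members, Prkca 3, Irx5 2, and Car8 and Trpm1 1. Both Irx5 members and 1 Irx6 member had SOX9. In the second, Tcf4 had 4, and Ebf1, Gad2, Onecut1 and Prox1 had 1. Photoreceptor genes had the fewest, with members at 2 of 20, Thrb (3) and Opn1sw (1), and kept regions at 4. The Opn1sw member also overlapped Calu.

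**Figure D5:**
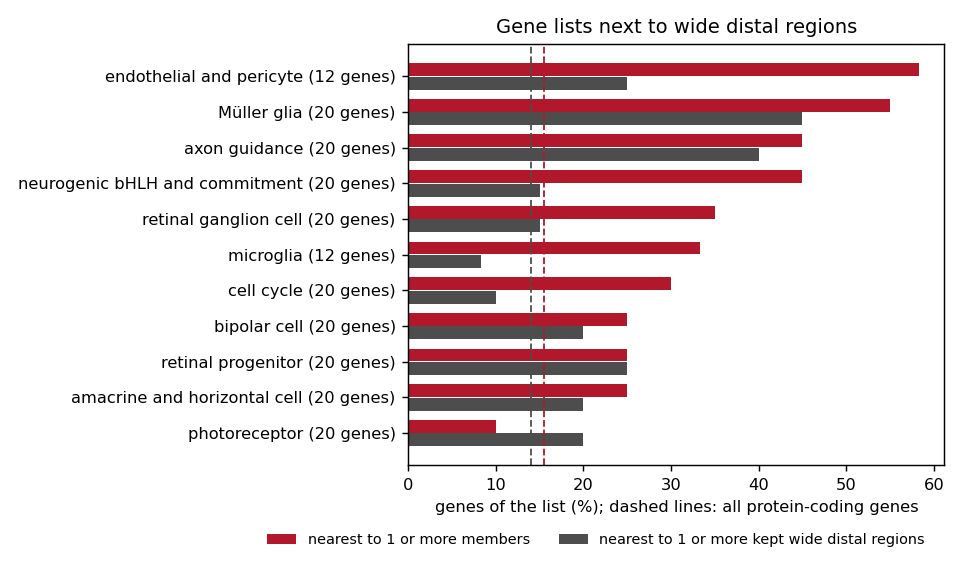
Percent of the genes of each list that were the nearest protein-coding gene of 1 or more members (red) or kept regions (grey), with dashed lines at 15.5% and 14.0% for all protein-coding genes. The endothelial and pericyte list is highest for members at 58.3%, and the photoreceptor list is lowest, with 2 of 20 genes.

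Genes of cells that enter the retina from outside the neural lineage were near members as well. Of 12 endothelial and pericyte genes, 7 had members and 3 had kept regions. Cdh5, the cadherin of vessels, had 7, of which 1 overlapped the gene and the others lay up to 405264 bp away. Pdgfrb, a pericyte receptor, had 4. Cldn5, Cspg4 and the VEGF receptor gene Kdr had 2, and Flt1 and Pecam1 had 1. The 4 Pdgfrb members, of 6730, 11049, 5252 and 6071 bp, overlapped the gene, and the first of them also overlapped Gm52351. Of 12 microglia genes, 4 had members and 1 had a kept region: P2ry12 with 3, and C1qa, C1qb and Csf1r with 1. The 3 P2ry12 members also overlapped Med12l, and the Csf1r member also overlapped Hmgxb3.

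Few of these vascular and microglial genes with members had H3K4me3. The rule keeps P2 H3K4me3 out of members, so none could lie on a gene start that a member covers, as at Cspg4. A gene was counted for a peak anywhere in it or within 1 kb, so the rule limited these counts without fixing them. Genes of these lists without members were not compared. Of the 7 endothelial and pericyte genes with members only 1, Kdr, had H3K4me3 at P2, and of the 4 microglia genes none had. None of the members at the endothelial and pericyte genes had P2 SOX9, and at the microglia genes 1 had, near C1qa. How much of the members' signal comes from such cells was not tested.

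Members also covered microRNA genes. Of 1005 microRNA hairpins with a position in the RefSeq table, 39 (3.88%) lay in members and 68 (6.77%) in kept regions. Mature sequences of 4 of them follow, chosen after their values were seen, with the seed (bases 2 to 8) in capitals. No seed is shared among the 4. miR-126a lies in Egfl7, which is expressed by endothelial cells, in a member of 6844 bp that had SOX9 at P17. miR-26a-1 lies in Ctdspl and miR-488 in Astn1, a gene of migrating neurons. For miR-135a-2, Nedd1 is only the nearest protein-coding gene, and its distance is not given here. The members of miR-26a-1, miR-135a-2 and miR-488, of 6219, 11619 and 9339 bp, had no SOX peak at P2.

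miR-126a-3p: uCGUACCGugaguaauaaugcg

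miR-26a-5p: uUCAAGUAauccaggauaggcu

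miR-135a-5p: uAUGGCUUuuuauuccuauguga

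miR-488-3p: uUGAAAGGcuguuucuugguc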

How the data were processed

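CUT&RUN was made from wild-type mouse retina at P2 and P17. The authors deposited 1 list of peak positions per target and age (8 lists, 349901 peaks), with a score field that is 0 for every peak, per the deposited files. The submitters' processing notes name Bowtie2, SEACR and the build GRCm38. Their settings, the use of IgG, and how replicates were combined are not given in the sources used here. A different depth or threshold at the 2 ages would change which regions are absent, and depth is unknown. IgG libraries were not analysed here.

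Overlaps (1 bp or more), gaps, clusters and nearest genes were computed with Python 3.11.15, numpy 2.4.6 and pandas 2.3.3, checked against direct counts on simulated regions and against bedtools 2.31.1. Genes were the 21887 protein-coding genes of a RefSeq table (GRCm38.p6) without strand, so distances run to either gene end. Start windows (17492 genes) and microRNAs came from RefSeq tables of that build, which are incomplete. Shares carry 95% Wilson intervals, differences Newcombe intervals. No p-value was computed, since regions are not replicates. Named regions and genes are the 10 widest members, the 5 largest clusters, the 10 genes with most members, the 10 widest members with each SOX factor at P2, list genes nearest to a member, and the regions next to the width threshold. Other genes were named after their values were seen. Members and gene lists were chosen with earlier results of these data known. Some genes that these rules name are not reported here.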

Additional observations from a re-analysis of the deposited data

How the results depend on the processing

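Of 45 recomputed values, 25 stayed within the main interval (within 1.5 times for the number of members) and 20 moved. A width minimum of 4000 bp gave 11689 members, with SOX9 at 1.44%, SOX8 at 0.299%, a protein-coding gene at 67.1% and another member within 50 kb at 73.8%. A minimum of 7500 bp gave 2553, 3.96%, 0.979%, 76.7% and 53.1%. At these minimums 5.73% and 9.53% of kept regions had SOX9. Joining P2 peaks across gaps of up to 1 kb first, chosen after the data were seen, gave 14336 members, with 1.00% SOX9 (kept regions 5.07%), 0.174% SOX8, 61.3% at genes and 75.1% near another. Limiting members to those more than 10 kb from a gene end, also chosen after the data were seen, gave 63.9% at genes and 60.7% near another. Counting all genes of the table put 79.8% of members at a gene. Within 10 kb of another member lay 37.9% and within 200 kb 86.4%. Removing regions only by an overlap of 50% of the shorter peak, requiring more than 1 kb to the other lists, excluding P17 H3K4me3, using autosomes only and a SOX overlap of 50% moved none of the values. No paired analysis was possible because the lists hold no replicate values, and for the same reason no replicate could be left out.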
